A study of Mus musculus with 12 samples.

Results

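The Polycomb genes and the demethylases that act on the same histone mark were compared between mouse fibroblasts, fibroblasts given factors for conversion to heart muscle-like cells, and heart muscle cells. Each group was sampled once, so a rise or fall below is a difference between groups and not a course over time. The group holds 9 genes, chosen by name from the 43629 genes of the count files: the H3K27 demethylases Kdm6a and Kdm6b, the Polycomb repressive complex 2 (PRC2) genes Ezh1, Ezh2, Eed and Suz12, and the Polycomb repressive complex 1 (PRC1) genes Bmi1, Ring1 and Rnf2. They were picked in part since Kdm6b was far lower in AGHMT than in GHMT, so that difference is given as a description with no test, and Kdm6b was tested in 1 comparison only. All 9 genes passed the filter on low counts that 15059 genes passed. RNA sequencing covered 12 libraries of C57BL/6 mice in 4 groups of 3. E were fibroblasts from mouse embryos that had carried an empty vector for 3 weeks. GHMT were such fibroblasts 3 weeks after vectors for Gata4, Hand2, Mef2c and Tbx5, and AGHMT after these with Akt. The cells of both factor groups were sorted for green fluorescent protein under the αMHC promoter, which belongs to the cardiac myosin gene Myh6, so they are reporter-positive cells and not whole cultures, while E was not labelled as sorted. CM were ventricular cardiomyocytes isolated from adult mice and are no product of the culture. No age beyond "adult" or "embryonic" is labelled, and nothing says that the libraries of a group came from separate cultures or animals, so p-values measure the spread between these libraries, which may be technical.

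Polycomb proteins keep genes silent by marking chromatin. PRC2 places methyl groups on H3K27, with Ezh1 or Ezh2 as its enzyme and Eed and Suz12 as core partners. PRC1 attaches ubiquitin to histone H2A, with Ring1 or Rnf2 as its enzyme and a Pcgf protein such as Bmi1 as partner. Kdm6a and Kdm6b remove methyl groups from H3K27. In the heart, Ezh2 is known for silencing non-cardiac genes during development, and Ezh1 is the PRC2 enzyme more often found in cells that no longer divide.

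The libraries differed in depth and in makeup. The range of gene reads was 15971154 to 33552138 for E, 5120230 to 15952646 for CM, 14386407 to 18493989 for AGHMT and 1872558 to 2200815 for GHMT. Mitochondrially encoded genes took 3.65% to 7.36% of them in E, 40.0% to 59.9% in CM, 36.6% to 42.7% in AGHMT and 27.8% to 72.2% in GHMT, so E was low and the other groups overlapped. GHMT 1 stood apart, with 612458 reads outside mitochondrial genes, where 3 reads equal 3.93 CPM. CPM are read counts per library size, with sizes adjusted by the TMM method, which assumes that most genes keep their level. The Akt1 counts did not show the Akt of the AGHMT label: Akt1 was at 7.30 to 19.6 CPM in the libraries labelled AGHMT, 1.31 to 13.7 in GHMT and 21.0 to 104 in E. No AGHMT library exceeded any E library, and AGHMT and GHMT overlapped (means 13.0 and 9.53). Whether reads from the vector's Akt would be counted as Akt1 is not known. Gata4, Mef2c and Tbx5 were above every E library in all libraries of both factor groups, and Hand2 in those of AGHMT only. Every direction given below for AGHMT rests on its label. The 6 cardiomyocyte markers summed to 10944 to 43896 CPM in CM, 1107 to 1812 in AGHMT, 509.9 to 961 in GHMT and 5.003 to 8.10 in E. Of 8 fibroblast markers none was at 0 in any group, and their sum was 11104 to 12446 CPM in E, 944 to 1197 in CM, 8383 to 9462 in AGHMT and 4836 to 6999 in GHMT. The 6 endothelial markers summed to 8.01 to 9.53 CPM in E, 473 to 610 in CM, 61.8 to 72.0 in AGHMT and 2.62 to 11.5 in GHMT, and all 6 were called higher in AGHMT than in E. The 7 macrophage markers summed to 12.1 to 38.3 CPM in E, 82.9 to 147 in CM, 31.8 to 46.3 in AGHMT and 1.31 to 6.19 in GHMT, where Adgre1, Cd68, Cd14 and C1qa were at 0. The 5 mast cell markers summed to 0.217 to 0.489 CPM in E, 7.21 to 10.3 in CM, 310 to 340 in AGHMT and 65.5 to 162 in GHMT, where Cpa3, Tpsb2, Cma1 and Kit were at 0. Of these 5 only 2 passed the filter on low counts, and Mcpt4 alone made the GHMT sum. The part of these cell types in the results was not tested.

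Promoter windows of 300 bases (250 before and 50 after the start site, RefSeq, GRCm38.p6) were matched for 8 of the 9 genes, Kdm6b being the exception. They were rich in CG dinucleotides, with 17 in Eed to 41 in Suz12, against a median of 7 (quartiles 3 and 21) over 27025 windows. The windows below are shown because Ezh2 fell together with genes of DNA replication and mitosis, and Suz12, Bmi1, Kdm6a and Rnf2 were higher in GHMT than in E. Capitals mark the letters that matched a motif searched on both strands: TTTGGCGC or TTTCCCGC for E2F factors, CACGTG for an E-box. The Ezh2 stretch is chr6:47595011-47595040 (minus strand), Suz12 chr11:79992856-79993105, Bmi1 chr2:18676768-18677017, Kdm6a chrX:18162325-18162574 (these 3 on the plus strand) and Rnf2 chr1:151500992-151501241 (minus strand), which held no match.
Ezh2: ttgggttgctgcgTTTGGCGCtcggtccgg
Suz12: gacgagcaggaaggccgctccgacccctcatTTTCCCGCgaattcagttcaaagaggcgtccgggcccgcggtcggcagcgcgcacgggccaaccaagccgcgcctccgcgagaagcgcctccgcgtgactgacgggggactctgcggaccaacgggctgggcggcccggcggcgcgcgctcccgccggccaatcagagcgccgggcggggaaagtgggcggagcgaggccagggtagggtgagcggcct
Bmi1: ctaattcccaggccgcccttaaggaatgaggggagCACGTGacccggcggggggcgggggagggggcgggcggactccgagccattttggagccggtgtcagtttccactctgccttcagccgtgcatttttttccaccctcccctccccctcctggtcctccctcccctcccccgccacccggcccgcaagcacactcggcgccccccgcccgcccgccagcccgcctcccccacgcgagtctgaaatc
Kdm6a: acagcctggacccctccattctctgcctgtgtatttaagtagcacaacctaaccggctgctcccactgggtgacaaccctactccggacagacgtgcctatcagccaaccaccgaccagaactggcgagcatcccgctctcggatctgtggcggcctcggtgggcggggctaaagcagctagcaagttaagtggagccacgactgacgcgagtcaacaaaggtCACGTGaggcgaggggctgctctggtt
Rnf2: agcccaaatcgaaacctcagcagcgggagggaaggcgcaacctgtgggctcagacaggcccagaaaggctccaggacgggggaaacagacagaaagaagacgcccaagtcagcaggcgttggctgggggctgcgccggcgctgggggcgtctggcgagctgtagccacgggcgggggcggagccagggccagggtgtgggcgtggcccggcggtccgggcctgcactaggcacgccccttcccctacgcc
The Ezh2 match began at base 4 counted from the start site and the Suz12 match at -219. TTTGGCGC was in 0.537% of all windows and TTTCCCGC in 1.11%. CACGTG began at -215 in Bmi1 and at -27 in Kdm6a and was in 7.24% of all windows. The GATA letters AGATAA were in none of the 8 windows and in 11.4% of all, and the T-box letters AGGTGT were in the Ezh1 window alone among the 8 (reverse strand, -78) and in 13.9% of all. A match is a description of letters and no evidence of binding.

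Kdm6b, a demethylase known as a fast-responding gene in stimulated cells, stood at 152, 398 and 315 CPM in the GHMT libraries. The AGHMT libraries held 13.7, 14.9 and 25.2 CPM, the CM libraries 7.21, 3.62 and 28.9, and the E libraries 15.2, 13.5 and 7.03. The GHMT libraries were far above all 9 others, and the other groups overlapped. The mean was 288 ± 125 CPM in GHMT and 17.9 ± 6.35 in AGHMT (SD, n = 3), a fitted 16.1-fold difference, or -4.01 on the log2 scale for AGHMT against GHMT. These are the values that chose the group, so no test is given. The reads behind them were 116, 763 and 459 in GHMT and 178, 271 and 463 in AGHMT. Across all alternatives that left out 1 library the log2 difference lay between -4.30 and -3.42, and it was -4.68 after a correction for GC content. In CM against E, the only comparison in which Kdm6b was tested, the log2 fold change was 0.12 ± 0.60 (SE), with adjusted p = 0.889 in edgeR's quasi-likelihood test, adjusted by Benjamini and Hochberg's method across all tested genes (95% interval -1.16 to 1.40). CM 3 alone set the CM mean: without it the log2 fold change was -1.12 (adjusted p = 0.0817).

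Kdm6b lies on chromosome 11 (69398508 to 69413675, minus strand, mm10) and overlaps the antisense gene Kdm6bos, and whether the counting used strand is not given in the sources used here. Kdm6bos had 0 reads in every GHMT library and 28, 33 and 47 reads in AGHMT, or 2.15, 1.82 and 2.56 CPM. It was at 0.203 to 0.306 CPM in E and 0.223 to 0.704 in CM. In GHMT 3 reads equal 1.56 to 3.93 CPM, so such levels could not be measured there and GHMT has no place in the order. The part of antisense reads in the Kdm6b counts was not tested. In bulk libraries, a change in how many cells express a gene and a change in the RNA of each cell cannot be told apart.

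**Figure D1:**
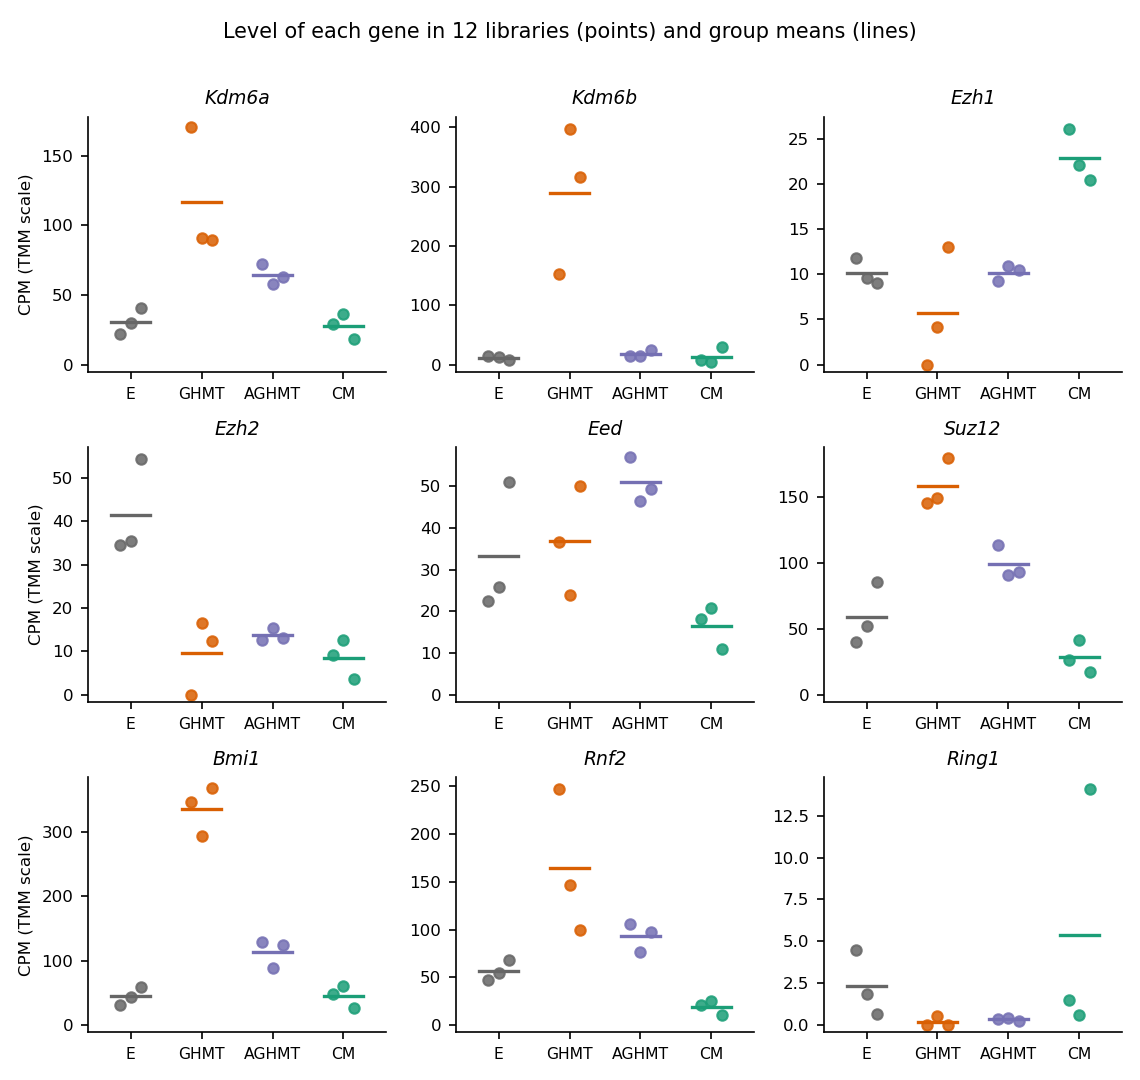
Level of the 9 genes in each library (vertical axes, CPM on the TMM scale, each from 0 with its own range), by group (horizontal axes); points are libraries and lines are means of 3. Kdm6b is at 152 to 398 CPM in GHMT and at most 28.9 elsewhere, Ezh2 is highest in E, and Ezh1 is highest in CM.

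Kdm6a, the X-linked demethylase that also works in the MLL3/4 enhancer complexes, was at 170.4, 90.7 and 89.4 CPM in GHMT and at 72.5, 58.0 and 63.3 in AGHMT. It was at 29.4, 36.4 and 18.0 CPM in CM and at 21.6, 29.6 and 40.9 in E. Every library of both factor groups lay above every E and CM library. Kdm6a was 3.78-fold higher in GHMT than in E (log2 1.92 ± 0.38, edgeR adjusted p = 9.98e-04) and 4.14-fold higher than in CM. It was 2.10-fold higher in AGHMT than in E (log2 1.07 ± 0.37, edgeR adjusted p = 0.0279) and 2.30-fold higher than in CM (edgeR adjusted p = 0.0159). In CM against E it stood at log2 -0.13 (95% interval -0.91 to 0.65). The GHMT rises passed under all alternatives, but the one over E was log2 1.03 without E 1 (edgeR adjusted p = 0.0461) and 1.27 without AGHMT 3 (0.022), and the one over CM was 1.46 with limma. The AGHMT rise over E did not pass without AGHMT 1, AGHMT 2, AGHMT 3, E 1 or E 2 (edgeR adjusted p 0.0521 to 0.106), with no filter, DESeq2 size factors, DESeq2, limma or thinning (0.057 to 0.0995). The rise over CM did not pass without AGHMT 1 or CM 3, with DESeq2 size factors, DESeq2 or limma (log2 0.51 to 0.52, adjusted p 0.21 to 0.244) or after thinning (log2 0.75, 0.153). With the GC correction the AGHMT values fell to log2 0.37 against E and 0.20 against CM, both without a call. The gene lies on chromosome X (18162575 to 18279936, plus strand, mm10). Side by side in length-normalised terms, Kdm6b was at 1.08, 5.27 and 4.24 times the level of Kdm6a in the GHMT libraries and at 0.228 to 0.481 times in AGHMT.

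Of the PRC2 enzymes, Ezh2 was highest in fibroblasts and Ezh1 in heart muscle. Ezh2 was at 34.5, 35.5 and 54.4 CPM in E and at 9.14, 12.6 and 3.61 in CM. It was at 12.6, 15.4 and 13.1 CPM in AGHMT and at 0, 16.7 and 12.4 in GHMT, where GHMT 1 had no Ezh2 read. Each E library was above every other library. The gene lies on chromosome 6 (47530139 to 47595341, minus strand), where Gm26625 and Gm44282 overlap it on the other strand, and Ezh1 on chromosome 11 (101191115 to 101226463, minus strand). Ezh2 was 4.87-fold lower in CM than in E (log2 -2.28 ± 0.66, edgeR adjusted p = 0.0119) and 3.96-fold lower in GHMT than in E (log2 -1.99 ± 0.69, edgeR adjusted p = 0.0257). In AGHMT it stood at log2 -1.59 against E (edgeR adjusted p = 0.0549), which is past no threshold; without GHMT 1, GHMT 2, GHMT 3 or CM 3 in the shared fit the adjusted p was 0.00789 to 0.0445, and with the GC correction 0.00245 at log2 -2.32. The fall in CM did not pass with limma on the deposited values (adjusted p = 0.315) or with all libraries thinned to 1 depth (adjusted p = 0.113), and the fall in GHMT did not pass without E 3 (adjusted p = 0.071).

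Ezh1 was at 26.2, 22.1 and 20.4 CPM in CM, against 11.8, 9.57 and 9.05 in E and 9.22, 10.9 and 10.5 in AGHMT. GHMT was uneven, with 0, 4.17 and 13.1 CPM from 0, 8 and 19 reads. The CM libraries were all above the other 9. In the fit over all groups Ezh1 stood at log2 1.18 ± 0.60 in CM against E (edgeR adjusted p = 0.131). It passed in the fit of those groups alone (log2 1.17, edgeR adjusted p = 0.00538), without GHMT 1 (0.0228) or GHMT 3 (0.0376) and with DESeq2 (1.84e-05). In GHMT it was 3.72-fold lower than in CM (log2 -1.90 ± 0.67, edgeR adjusted p = 0.0248), a call lost without GHMT 2 (0.0789) or CM 1 (0.0623), in the fit of those groups alone (0.0662) and with the GC correction (log2 -1.06, adjusted p = 0.117).

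The ratio of Ezh1 to Ezh2 within a library, per exonic length, does not depend on the scaling between libraries. It is not corrected for GC content. It was 2.56, 1.58 and 4.99 in the CM libraries and 0.307, 0.242 and 0.149 in the E libraries, so Ezh1 led in every CM library and Ezh2 in every E library. The mean log2 ratio was 1.44 ± 0.83 in CM and -2.16 ± 0.53 in E (SD, n = 3). The difference was 3.61, or 12.2-fold, with p = 0.1 in an exact two-sided permutation test, the smallest p that 3 against 3 allows. AGHMT lay between them, at 0.657, 0.635 and 0.715, each above every E library and below every CM library. In GHMT the ratio was 0.235 and 0.946 in GHMT 2 and GHMT 3 and had no value in GHMT 1. Exonic GC content was 49.95% for Ezh1 and 44.1% for Ezh2. Within CM the ratio ranked with the GC trend of the libraries (0.37, 0.20 and 0.58). Within E it did too (0.52, 0.38 and 0.064), but within AGHMT it did not (-0.56, -0.28 and -0.41). With the GC correction, CM against E stood at log2 1.32 for Ezh1 and -2.03 for Ezh2. The part of GC content in the ratio was not tested. The Ezh2 levels moved with the 24 genes of S phase and mitosis, whose summed level was 1396 to 2169 CPM in E, 92.1 to 140 in CM, 255 to 276 in AGHMT and 168 to 212 in GHMT; the part of cell division in the Ezh2 result was not tested.

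**Figure D2:**
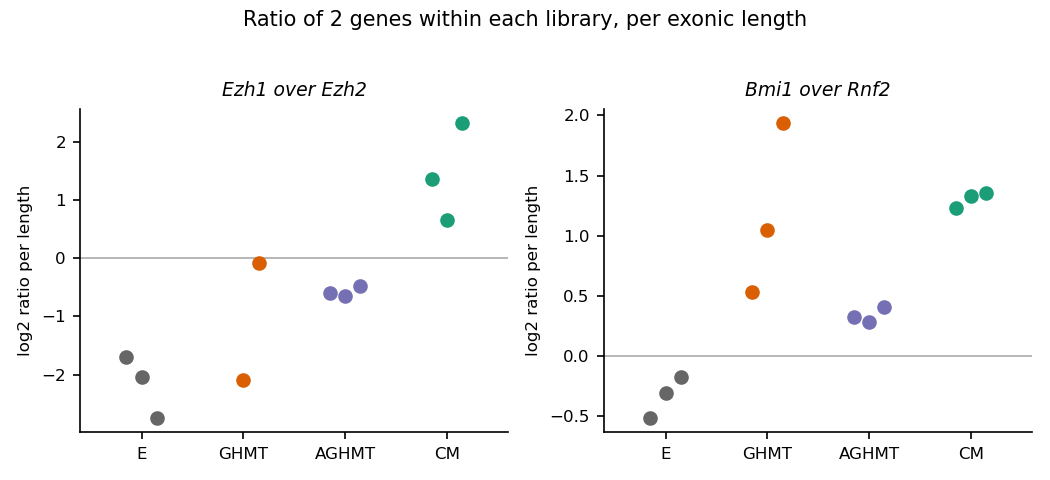
Log2 ratio per exonic length (vertical axes) of Ezh1 to Ezh2 and of Bmi1 to Rnf2 in each library (points), by group (horizontal axes); the grey line marks equal levels, and GHMT 1 has no value in the left panel because it had no read of either gene. Ezh1 over Ezh2 is above 0 in the 3 CM libraries and below 0 in all others drawn.

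The core genes Suz12 and Eed were ordered otherwise than Ezh2. Suz12, needed for a stable complex, was at 146, 149.5 and 180.1 CPM in GHMT and at 114, 90.8 and 93.7 in AGHMT. It was at 26.2, 42.0 and 17.0 CPM in CM and 39.8, 52.0 and 85.6 in E. Suz12 lies on chromosome 11 (79993106 to 80034123, plus strand), with Gm26563 overlapping it on the other strand. The groups ran from GHMT down through AGHMT and E to CM, and only E and CM overlapped. Suz12 was 2.68-fold higher in GHMT than in E (log2 1.42 ± 0.37, edgeR adjusted p = 0.00542) and 2.08-fold lower in CM than in E (log2 -1.05 ± 0.36, edgeR adjusted p = 0.0293). The GHMT rise was lost with the GC correction (log2 0.36, adjusted p = 0.196) and without E 1 (log2 0.56) or AGHMT 3 (log2 0.82). The fall in CM was lost without CM 1 (adjusted p = 0.113), CM 3 (0.0941) or E 3 (0.153), and with DESeq2 size factors (log2 -0.69, 0.0791), without mitochondrial genes (0.0753), in the fit of those groups alone (0.0824), with limma (0.0887) and after thinning (0.0946). In AGHMT Suz12 stood at log2 0.75 against E (edgeR adjusted p = 0.0978), which passed without E 3 (log2 1.12, adjusted p = 0.0294) and was -0.31 with the GC correction. Against CM it rose in both factor groups, by log2 2.48 in GHMT and 1.81 in AGHMT (edgeR adjusted p = 9.87e-05 and 0.0015), and with the GC correction by 0.96 in GHMT, while AGHMT then stood at 0.28 without a call.

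Eed, the PRC2 subunit that reads the methyl mark, varied less. It was at 22.6, 26.0 and 51.0 CPM in E, 18.1, 20.7 and 11.0 in CM, 57.1, 46.5 and 49.4 in AGHMT and 36.7, 24.0 and 50.2 in GHMT. Eed lies on chromosome 7 (89954654 to 89980983, minus strand), overlapped by Gm45120 on its own strand and E230029C05Rik on the other. The CM libraries were lowest, while GHMT, AGHMT and E overlapped. Eed was 3.06-fold higher in AGHMT than in CM (log2 1.61 ± 0.42, edgeR adjusted p = 0.00634) and 2.21-fold higher in GHMT than in CM (log2 1.15 ± 0.43, edgeR adjusted p = 0.0327). The GHMT call was lost without GHMT 1, GHMT 3, AGHMT 3, CM 1, CM 3 or E 1 (adjusted p 0.0506 to 0.264). It was also lost with no filter, DESeq2 size factors, DESeq2, limma or thinning, without mitochondrial genes and in the fit of those groups alone (0.0624 to 0.305). The AGHMT call was lost with the GC correction (log2 0.78, adjusted p = 0.0821), DESeq2 size factors (0.0536) and limma (0.0581). None of the 3 comparisons against E called it. In CM against E it stood at log2 -0.99 (edgeR adjusted p = 0.0666) and passed without E 1 (0.0255), GHMT 2 (0.0459) or GHMT 3 (0.0459).

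Bmi1, the Pcgf partner known for silencing the Cdkn2a locus, had the largest tested rise over E among the 9 genes. It was at 346, 293 and 368 CPM in GHMT and at 128, 89.2 and 124 in AGHMT. It was at 47.8, 60.4 and 26.8 CPM in CM and at 31.8, 42.8 and 58.5 in E. The gene lies on chromosome 2 (18677018 to 18686629, plus strand). Every GHMT library was above every AGHMT library, and every AGHMT library above all of E and CM. Bmi1 was 7.56-fold higher in GHMT than in E (log2 2.92 ± 0.36, edgeR adjusted p = 2.31e-05) and 7.44-fold higher than in CM, and both calls held in all alternatives (log2 1.77 and 1.30 at the least, with the GC correction). In AGHMT it was 2.57-fold higher than in E (log2 1.36 ± 0.34, edgeR adjusted p = 0.00532) and 2.53-fold higher than in CM (edgeR adjusted p = 0.0054). With the GC correction these were log2 0.23 and -0.25, neither with a call, and the rise over CM was also lost with DESeq2 size factors (adjusted p = 0.0599), limma (0.0651) and thinning (0.0718). In CM against E it stood at log2 0.02 (95% interval -0.69 to 0.73).

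Rnf2, the PRC1 enzyme also called Ring1B, was at 248, 147 and 99.7 CPM in GHMT and at 106, 76.0 and 97.3 in AGHMT. It was at 47.1, 54.8 and 68.4 CPM in E and 21.1, 24.9 and 10.8 in CM. GHMT and AGHMT overlapped, both were above E, and E was above CM. Rnf2 was 2.98-fold lower in CM than in E (log2 -1.58 ± 0.38, edgeR adjusted p = 0.00391), which held under every alternative (adjusted p 5.57e-04 to 0.0187). It was 8.61-fold higher in GHMT and 4.90-fold higher in AGHMT than in CM (edgeR adjusted p = 2.44e-05 and 4.29e-04), and these calls also held, at log2 1.70 and 0.81 with the GC correction. It was 2.89-fold higher in GHMT than in E (log2 1.53 ± 0.38, edgeR adjusted p = 0.00453), a call lost with the GC correction (log2 0.53), without E 1 (log2 0.73) and without AGHMT 3 (log2 0.90). In AGHMT it stood at log2 0.72 against E (edgeR adjusted p = 0.127) and at -0.35 with the GC correction. Rnf2 lies on chromosome 1 (151458004 to 151500955, minus strand) and overlaps Trmt1l on the other strand and Gm36527 on its own.

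Per exonic length, Bmi1 stood at 2.35, 2.52 and 2.56 times the level of Rnf2 in the CM libraries and at 0.702, 0.811 and 0.889 times in E. AGHMT was between them, at 1.22 to 1.33 times, and GHMT ranged from 1.45 to 3.82. The GC contents of the pair were close, 40.4% and 41.3%. The pair was chosen after its values were seen, and no test is given.

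Ring1, the other PRC1 enzyme, was nearly absent from both factor groups and also low in some E and CM libraries. It had 0, 1 and 0 reads in GHMT and 5, 8 and 4 reads in AGHMT, or 0.384, 0.440 and 0.218 CPM. It had 266, 54 and 22 reads in E, or 4.45, 1.83 and 0.673 CPM, and 20, 6 and 82 reads in CM, or 1.49, 0.604 and 14.1 CPM. Every AGHMT library was below every E and CM library. In GHMT 3 reads equal 1.56 to 3.93 CPM, so levels like those of E 3, CM 1 and CM 2 could not be measured there. The gene lies on chromosome 17 (34020792 to 34024680, minus strand). With a single read in all of GHMT, no fitted fold is given: the pooled rate was 0.0863 of that in E, with an exact 95% interval of 0.00218 to 0.484 that covers counting error only, and 0.704 of that in AGHMT (0.0168 to 4.49). Ring1 was called lower in GHMT than in CM (edgeR adjusted p = 0.0292) but not lower than in E (0.112), and the CM call was lost without GHMT 1, GHMT 2, GHMT 3 or CM 3 (0.0698 to 0.232) and with the GC correction (0.225). In AGHMT it was 6.61-fold lower than in E (log2 -2.72 ± 1.06, edgeR adjusted p = 0.0463) and 14.9-fold lower than in CM (log2 -3.90 ± 1.10, edgeR adjusted p = 0.01). The first call was lost with the GC correction (log2 -1.43), with limma (0.135), without mitochondrial genes (0.0689) and without GHMT 1, GHMT 2, E 1, E 2 or any AGHMT library (adjusted p 0.0522 to 0.244). The second was lost without AGHMT 3 (0.0542), and CM 3 held most of the CM reads: without it AGHMT against CM was log2 -1.60, also without a call (0.145). Against E, CM stood at log2 1.18, and at -1.13 without CM 3, neither with a call.

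In length-normalised levels (CPM per kilobase of exon), Bmi1 led in GHMT (mean 84.4), AGHMT (28.7) and CM (11.3). In AGHMT and CM its range overlapped that of the next gene, but only between different libraries. Within every AGHMT library Bmi1 was above Rnf2, the next gene there, and within every CM library above Suz12, the next gene there. In E the means of Rnf2 (13.7), Suz12 (11.96), Bmi1 (11.2) and Eed (8.67) lay close together, and the ranges of these 4 genes overlapped. Within libraries, Rnf2 was the highest of them in E 1 and E 2 and Suz12 in E 3, and Eed was the lowest of them in each. Ring1 was lowest in 3 groups, at 0.714 in E, 0.107 in AGHMT and 0.0536 in GHMT, and in CM the means of Ezh2 (1.26) and Ring1 (1.66) were the lowest. CM 3 alone set their order: Ring1 was at 0.458, 0.186 and 4.34 in the CM libraries and Ezh2 at 1.37, 1.88 and 0.540, so Ring1 was below Ezh2 in CM 1 and CM 2. Kdm6b ran from 1.71 in E to 41.5 in GHMT.

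Counted over the members of CM against E, 0 of 9 were called higher and 3 lower, where 19.5% of all 15059 genes tested were called higher and 22.5% lower. In GHMT against E, 4 of the 8 members tested were called higher and 1 lower (all genes 19.8% and 32.9%), and the members' median log2 fold change was 0.79 against -1.06 over all genes. These 2 medians are not matched for depth or GC content. With all libraries thinned to 1 depth, the median over the 8852 genes then tested was -0.22. It was 1.70 in the lowest class of GC content and -1.88 in the highest, without thinning. In AGHMT against E, 2 of 8 were called higher and 1 lower (all genes 21.9% and 24.6%), with medians of 0.67 and -0.16. In GHMT against CM, 5 of 8 were called higher and 2 lower (all genes 23.8% and 34.7%). In AGHMT against CM, 5 of 8 were higher and 1 lower (all genes 23.7% and 24.4%). The higher members were Kdm6a, Suz12, Bmi1 and Rnf2 in GHMT against E, the same 4 with Eed against CM in both factor groups, and Kdm6a and Bmi1 in AGHMT against E. These comparisons share the E or the CM libraries and are not independent of each other. Scaling by DESeq2's size factors moved the median of all genes in CM against E from -0.26 to 0.14 and in AGHMT against CM from -0.05 to -0.78 and reversed no called member.

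**Figure D3:**
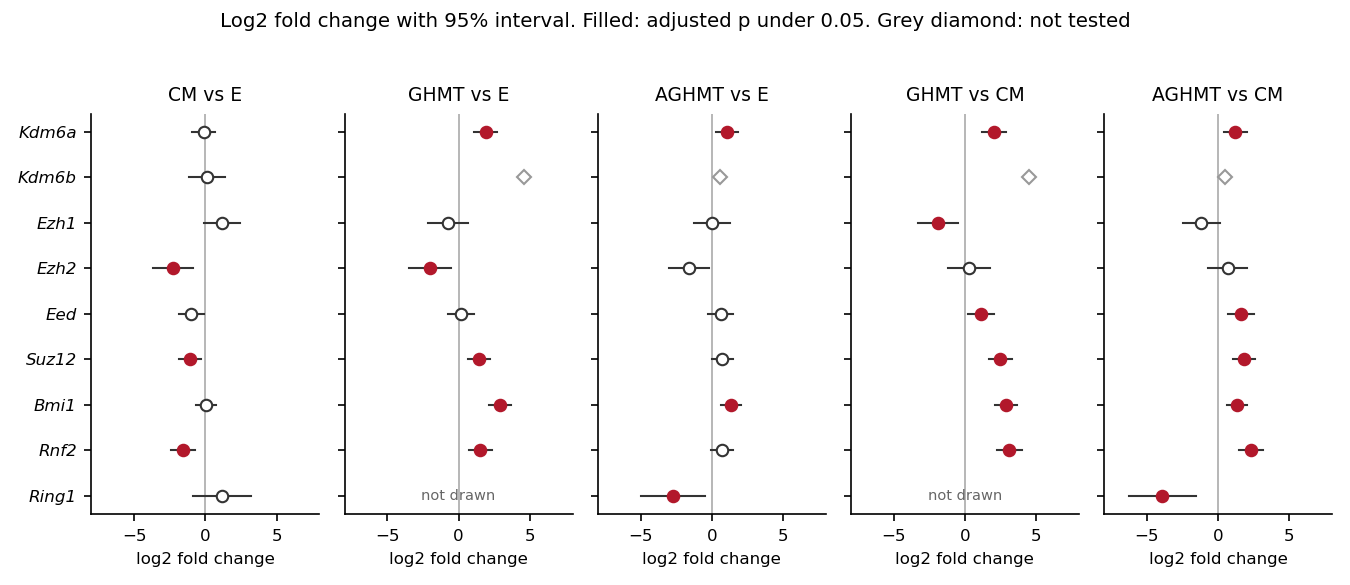
Log2 fold change (horizontal axes) with 95% interval of each gene (vertical axis) in 5 comparisons; filled points passed at an adjusted p under 0.05, open circles did not, grey diamonds are Kdm6b values that were not tested, and Ring1 is not drawn where GHMT had 1 read. Bmi1, Kdm6a, Suz12 and Rnf2 lie right of 0 in both comparisons of GHMT, and Ezh2 lies left of 0 in the 3 comparisons against E.

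Between AGHMT and GHMT, 4 of the 9 members (Kdm6a, Kdm6b, Suz12 and Bmi1) had every AGHMT library below every GHMT library, none had all above, and 5 overlapped, where 8.47% of all genes lay wholly below. That share is over all 15059 genes tested and is not matched for level. A gene with 0 reads in a GHMT library cannot lie wholly below, and Kdm6b is among the 4 though its difference chose the group. The log2 difference was -4.01 for Kdm6b, -1.56 for Bmi1, -0.84 for Kdm6a, -0.81 for Rnf2 and -0.67 for Suz12. It was 0.39 for Ezh2, 0.47 for Eed and 0.73 for Ezh1. These values moved when 1 library was left out: without AGHMT 3 or without E 1, which is in neither group, Bmi1 was at -0.95 or -0.91, Kdm6a at -0.12 or -0.16, Rnf2 at -0.13 in both cases, Suz12 at 0.035 or -0.034, Eed at 1.17 or 1.12 and Ezh1 at 1.34 or 1.33, and Ezh2 was at 1.01 without AGHMT 3. Ezh1 was at 1.96 without GHMT 3. This is the comparison by which the group was chosen, so nothing further is read from these values.

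GC content moved with the factor groups. The share of G and C in a gene's exons was 59.2% for Ring1 and 59.0% for Kdm6b, above at least 95.4% of tested genes, and 40.4% for Bmi1, 40.8% for Suz12 and 41.3% for Rnf2, against a median of 49.2%. Tested genes were ranked into 10 classes of GC content. Among those of at least 10 CPM on average, the lowest class had a median log2 fold change of 1.70 in GHMT against E and the highest class one of -1.88. In AGHMT against E these medians were 1.15 and -1.38. The rises of Bmi1, Suz12 and Rnf2 and the low Ring1 counts ran with this trend, and Kdm6b ran against it: its log2 difference between GHMT and E was 4.60 before and 6.38 after the correction. Of the 4 members called higher in GHMT than in E, Kdm6a (log2 1.79) and Bmi1 (1.77) were still called after the correction, and in AGHMT against E none was. Sorting and the GC trend moved with both factor groups, and low depth with GHMT alone; these cannot be told apart from the factors.

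**Figure D4:**
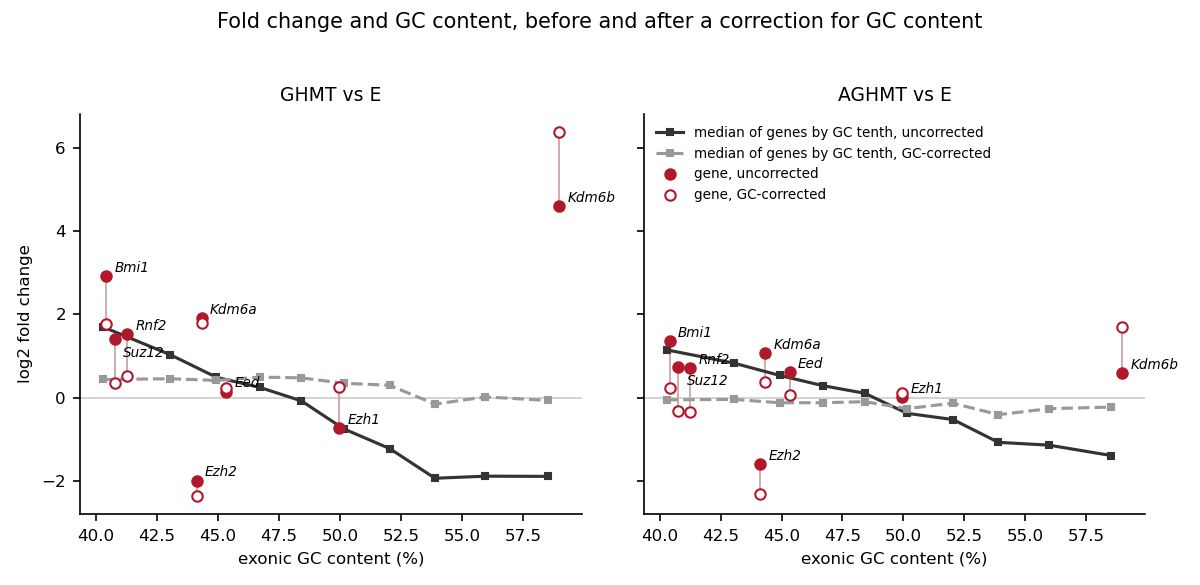
Exonic GC content (horizontal axes, percent) and log2 fold change against E (vertical axis) of the 8 members other than Ring1, before (filled) and after (open) the GC correction; lines are medians of genes of at least 10 CPM in 10 classes of GC content. Before the correction the medians fall from 1.70 to -1.88 in GHMT, and Kdm6b stands far above the line at its GC content.

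The partners of PRC2 and PRC1 were mixed. Of all genes tested, 19.8% were called higher and 32.9% lower in GHMT against E, 21.9% and 24.6% in AGHMT, and 19.5% and 22.5% in CM. The medians over all genes were -1.06, -0.16 and -0.26. The counts and medians of this and the following lists are to be read beside these. Of 9 further PRC2 subunits, 2 were called higher and 1 lower in GHMT against E, 2 and 2 in AGHMT, and 1 and 2 in CM. Their median log2 fold changes were -0.019, 0.16 and -0.59. Jarid2, which recruits PRC2 and has a known role in heart development, was higher than in E in all 3 groups, at log2 1.71 ± 0.41 in CM, 2.30 ± 0.42 in GHMT and 1.72 ± 0.41 in AGHMT (edgeR adjusted p = 0.00329, 5.42e-04 and 0.00394). Lcor, which encodes a PRC2 accessory isoform, rose by log2 2.48 ± 0.51 in GHMT (edgeR adjusted p = 0.00117). Of 11 canonical PRC1 subunits, 1 was higher and 7 lower in GHMT against E, 1 and 3 in AGHMT, and 1 and 1 in CM. The medians were -3.23 (-1.91 with genes at 0 reads set to their bound), 0.070 and -0.62. Among those lower in GHMT, exonic GC content was 55.4% for Pcgf2, 56.4% for Cbx8 and 60.3% for Phc2. With the GC correction the calls of Cbx8 and Phc2 were lost (edgeR adjusted p = 0.119 and 0.09), while Pcgf2 kept its call in every alternative. Phc3, a polyhomeotic protein, was the one that rose in both factor groups (log2 1.66 ± 0.32 and 1.35 ± 0.31, edgeR adjusted p = 7.36e-04 and 0.00342). Pcgf2, the closest relative of Bmi1, had 0 reads in all of GHMT, at least 18.8-fold lower than in E when set against 3 reads over the group. It was at 2.22 ± 0.92 CPM in AGHMT and 12.7 ± 6.28 in E (SD, n = 3; log2 -2.51, edgeR adjusted p = 0.00981, and 0.0757 without AGHMT 3). Cbx7, a chromobox subunit that binds methylated H3K27, rose by log2 3.99 ± 0.97 in CM (edgeR adjusted p = 0.0048).

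Of 16 subunits of variant PRC1, which lacks the chromobox proteins, 4 were higher and 1 lower in GHMT against E, 3 and 3 in AGHMT, and 3 and 2 in CM, with medians of -0.094, -0.023 and -0.41. The level of Pcgf5 was 5.20 ± 1.88 CPM in E, 28.8 ± 10.2 in CM, 113 ± 14.6 in AGHMT and 165 ± 48.8 in GHMT (SD, n = 3). It rose in all 3 groups (log2 4.996 ± 0.42, 4.44 ± 0.41 and 2.48 ± 0.38, edgeR adjusted p = 7.48e-07, 1.68e-06 and 9.62e-05). Auts2, its partner in a variant complex known for gene activation, rose by log2 4.02 ± 0.34 in GHMT and 2.40 ± 0.31 in AGHMT (edgeR adjusted p = 6.13e-07 and 4.22e-05). Pcgf3 fell in CM by 1.48 on the log2 scale (edgeR adjusted p = 3.69e-04). The exonic GC content was 41.5% for Pcgf5 and 53.6% for Auts2, and these calls also passed with the GC correction.

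Among 13 genes of H2A deubiquitinases, which undo the PRC1 mark, 2 were higher and 6 lower in GHMT against E, 1 and 6 in AGHMT, and 0 and 3 in CM, with medians of -1.08, -0.97 and -0.83. Ogt, a sugar transferase bound to the BAP1 complex, rose by log2 1.07 ± 0.34 in GHMT (edgeR adjusted p = 0.0166). Bap1, the enzyme itself, fell by 3.83 on the log2 scale in GHMT (edgeR adjusted p = 0.00321) and by 2.64 in AGHMT (0.00662, and 0.0658 with limma). It had 4 reads in all of GHMT, and that call was lost with the GC correction (log2 -1.97, edgeR adjusted p = 0.0609). Of 9 MLL3/4 complex partners of Kdm6a, 1 was higher and 4 lower in GHMT, 0 and 2 in AGHMT, and none was called in CM. The medians were -1.66 (-1.32 with genes at 0 reads set to their bound), -0.68 and -0.36. Kmt2c, a methyltransferase of that complex, rose by log2 1.61 ± 0.29 in GHMT (edgeR adjusted p = 4.33e-04). Wdr5, a core scaffold, was at log2 -3.43 in GHMT and -1.99 in AGHMT, and Paxip1 at -3.96 and -2.76, all called lower (edgeR adjusted p at most 0.00233). In all of GHMT Wdr5 had 12 reads and Paxip1 4, so the size of the GHMT folds is uncertain. The Paxip1 mean of 1.22 CPM there was below the 1.56 to 3.93 CPM that 3 reads equal. Of 20 other JmjC proteins, the family of Kdm6a and Kdm6b, 4 were higher and 3 lower in GHMT, 2 and 7 in AGHMT, and 2 and 1 in CM, with medians of 0.13, -0.34 and -0.34. Kdm7a, which also acts on H3K27, rose in all 3 groups, by log2 3.32 ± 0.37 in GHMT, 3.33 ± 0.37 in AGHMT and 1.39 ± 0.34 in CM (edgeR adjusted p = 9.33e-06, 9.25e-06 and 0.00403). Its level was 222 ± 17.5 CPM in GHMT and 224 ± 35.5 in AGHMT (SD, n = 3). Kdm5b, a demethylase of H3K4, fell by 2.02 in CM (edgeR adjusted p = 0.00482).

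Of 16 classical Polycomb target genes, 10 passed the filter. Against E, 9 of these were lower in CM and 1 was higher, with a median log2 fold change of -4.32; in GHMT 3 were higher and 3 lower, with a median of -1.09, and in AGHMT 1 was higher and none lower, with a median of 0.16. The AGHMT gene was Pax6 (edgeR adjusted p = 0.0474), which was not called without E 1 (0.137) or in several other fits. Cdkn2b, a cell cycle inhibitor, was at 0.307 ± 0.137 CPM in CM and 27.3 ± 3.25 in E (SD, n = 3; log2 -6.35 ± 0.96, edgeR adjusted p = 8.43e-05). Cdkn2a, its neighbour and a target of Bmi1, had no read in CM, at least 42.0-fold lower than in E when set against 3 reads over the group. No histone mark was measured in the data analysed here, so these are RNA levels only.

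**Figure D5:**
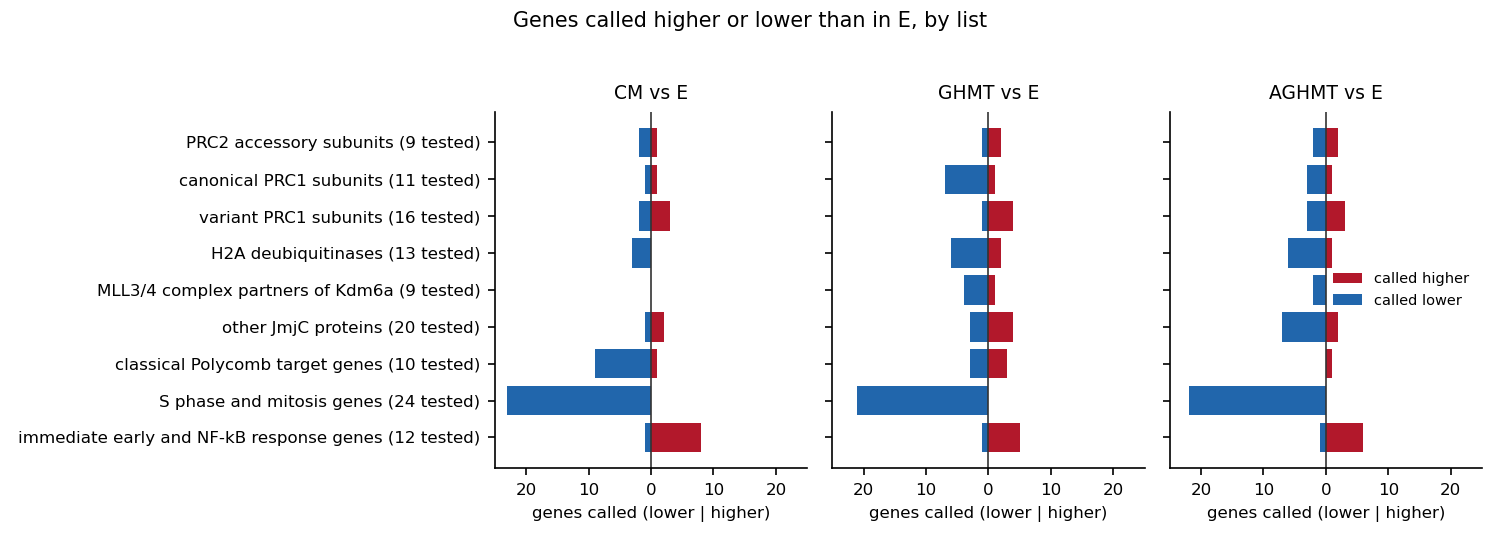
Number of genes (horizontal axes) called higher (right, red) or lower (left, blue) than in E at an adjusted p under 0.05, for 9 lists (vertical axis, with the number tested) in CM, GHMT and AGHMT. Genes of S phase and mitosis are lower in all 3 comparisons, and the partner lists of the Polycomb genes hold calls in both directions.

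Of 24 genes of S phase and mitosis, 23 were lower in CM against E, 21 in GHMT and 22 in AGHMT, and none was higher, with medians of -4.36, -4.16 and -3.09. Cdk1, which drives entry into mitosis, stood at log2 -5.53 in CM and -6.17 in GHMT, both called. It had 6 reads in all of GHMT, a mean of 1.42 CPM, so the size of that fold is uncertain. Of 12 immediate early and NF-kB response genes, 8 were higher and 1 lower in CM against E, 5 and 1 in GHMT, and 6 and 1 in AGHMT, with medians of 2.50, 1.57 and 1.58. Their sum was 93.2 to 122.5 CPM in E, 437 to 819 in CM, 375 to 470.5 in AGHMT and 359 to 537 in GHMT. This sum overlapped between GHMT and AGHMT. Fos and Egr1 held much of it, at means of 205 and 104 CPM in GHMT and 129 and 105 in AGHMT, so it says little of the other genes. The part of these genes in the Kdm6b levels was not tested.

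Likeness to each of 3 members was measured as Pearson's r of log2 CPM over the 12 libraries, among 6823 protein-coding genes of at least 10 CPM on average. The libraries share groups, depth and GC trend, and no p is given. Setd1b was most like Kdm6b (r = 0.943), with means of 7.65 CPM in E, 7.40 in CM, 8.92 in AGHMT and 98.8 in GHMT. Arid1b (0.925), Hmbox1 (0.925) and Zbtb7a (0.923) were among the genes next in order. The means of Arid1b were 17.7 CPM in E, 21.5 in CM, 35.8 in AGHMT and 239.8 in GHMT. Ezh1 was most like Anapc16 (0.991), Mtr (0.988), Timmdc1 (0.988), Zswim9 (0.986) and Ppp2r2d (0.982). Ezh2 was most like Ripk1 (0.987), Ctps2 (0.985), Cenpf (0.985), Adamts1 (0.982) and Unc50 (0.982), of which Cenpf, a centromere protein of dividing cells, is on the S phase and mitosis list. Ezh1 and Ezh2 had no read in GHMT 1, which weighs on r for both.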

How the data were processed

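Total RNA of 12 libraries was sequenced. Per the labels' protocols, Trizol served for extraction and a stranded TruSeq kit for the libraries. The submitters' processing notes name mm10, Bowtie2 2.0.6, HTSeq and DESeq. The deposited files hold the authors' read counts per Ensembl gene; lines that name no gene (reads in no feature were 8.45% to 20.2% of uniquely aligned reads) were left out. A further table holds the authors' normalized signal, counts divided by 1 size factor per library, used as an alternative. Symbols, exonic length and GC content came from GENCODE M21 (GRCm38).

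Genes were kept with filterByExpr (minimum count 10, minimum total 15), scaled by TMM and tested in edgeR 4.0.16 (R 4.3.3) with 1 robust quasi-likelihood fit of all 12 libraries, Benjamini-Hochberg adjustment over 15059 genes and a threshold of 0.05. The ratio of Ezh1 to Ezh2 used counts plus 0.5. Alternatives were leaving all genes in, keeping those above 1 CPM in 3 or more libraries (the stricter filter), DESeq2 size factors, no mitochondrial genes, DESeq2 1.42.0, limma 3.58.1 on log2 of the deposited signal plus 1, only the groups compared, a replicate block, thinning to 612458 reads, offsets for GC content, and each library left out. Leaving out GHMT 1, CM 3 and E 1 together was chosen after seeing the data. The members and lists were chosen with earlier results of these data known. All members were named; of each other list, the gene of highest mean level and up to 3 called genes of largest change per comparison could be named, and the 5 genes most like Kdm6b, Ezh1 and Ezh2; some that this rule selects are not reported here. Libraries of a group differed by 13.4 to 272 chi-square per degree of freedom, so none was a copy of another.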

Additional observations from a re-analysis of the deposited data

How the results depend on the processing

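Of 41 tested results on the 9 genes, 24 were called, and 8 of these kept their call and direction under every alternative: Rnf2 in CM against E, Kdm6a and Bmi1 in GHMT against E, Kdm6a, Suz12, Bmi1 and Rnf2 in GHMT against CM, and Rnf2 in AGHMT against CM. Over 936 alternative values, 760 kept direction and side of the threshold, 85 lost it, 35 gained it and 56 changed sign. Depth limits GHMT, where 3 reads are worth 1.56 to 3.93 CPM, so levels below that are not measurable there; the intervals of the Ring1 rates and this floor cover counting error only. The cause of the changes below was not tested.

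Counts of called members are given next. Higher in CM than in E (main 0), 1 was called with only those groups, DESeq2, the GC correction and without GHMT 1, CM 3 and E 1. Lower in CM (main 3), limma and thinning each called 1. Higher in GHMT than in E (main 4), the GC correction called 2. Lower in GHMT (main 1), no filter, only those groups and limma called 2. Higher in AGHMT than in E (main 2), no filter, DESeq2 size factors, DESeq2, limma and thinning called 1, the GC correction 0 and only those groups 4. Lower in AGHMT (main 1), no filter, DESeq2 size factors, DESeq2, only those groups and the removal of GHMT 1, CM 3 and E 1 called 2, and limma, thinning and the removal of mitochondrial genes 0. Lower in GHMT than in CM (main 2), thinning and the removal of the 3 libraries called 1, and the GC correction and only those groups 0. Higher in AGHMT than in CM (main 5), DESeq2 size factors and limma called 2, thinning 3 and the GC correction 1. Lower in AGHMT than in CM (main 1), DESeq2 size factors, DESeq2 and the GC correction called 2 and thinning 0. Leaving out 1 library gave 0 to 1 higher and 2 to 4 lower in CM against E, 2 to 4 and 0 to 2 in GHMT against E, 1 to 3 and 0 to 2 in AGHMT against E, and 4 to 5 and 0 to 2 against CM in both factor groups. The log2 Ezh1 to Ezh2 difference was 3.17 to 4.002 without 1 library (exact permutation p 0.2, the smallest possible) and 3.62 with the deposited values. Ring1 was filtered out after thinning and in some fits of 2 groups.

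With the replicate block, AGHMT against E had 1 higher and 0 lower and GHMT against CM 1 lower, and the calls of members lost were Suz12 in CM against E (adjusted p = 0.062), Kdm6a (0.0599) and Ring1 (0.0776) in AGHMT against E, and Eed (0.0746) and Ring1 (0.0679) in GHMT against CM. Kdm6b then stood at -0.22 in CM against E and Ezh1 at -0.013 in AGHMT against E. The labels give the groups the same replicate numbers. Of 18 pairs with the same number 3 correlated above 0.1 (range -0.80 to 0.22), and 1 of 12 libraries correlated best with its own number. These correlations showed no pairing by number. They cannot exclude one, since pairs with different numbers ranged from -0.83 to 0.86 and such differences could hide it.

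Values that changed sign were, except for those of Bmi1 in AGHMT against CM and of Pax6, results without a call. In CM against E, Kdm6a was 0.24 with DESeq2 size factors and with DESeq2, 0.090 without mitochondrial genes, 0.25 with limma, 0.29 after thinning and 0.18 with the GC correction; Kdm6b was -0.042 with no filter, -0.28 with the GC correction and -0.91 without the 3 libraries; Bmi1 was -0.091 with no filter and -0.053 with only those groups; Ring1 was -0.23 without the 3 libraries. In GHMT against E, Ezh1 was 0.26 with the GC correction, and Eed -0.012 with DESeq2 size factors, -0.081 without mitochondrial genes, -0.021 with DESeq2, -0.00081 with limma and -0.086 without the 3 libraries. In AGHMT against E, Ezh1 was -0.076 with no filter, -0.078 after thinning, -0.34 with DESeq2 size factors and with DESeq2 and -0.32 with limma, Suz12 -0.31 and Rnf2 -0.35 with the GC correction. In GHMT against CM, Ezh2 was -0.29 with DESeq2 size factors, -0.10 without mitochondrial genes, -0.11 with only those groups, -0.26 with DESeq2, -2.00 with limma, -0.48 after thinning and -0.32 with the GC correction. In AGHMT against CM, the GC correction gave -0.28 for Ezh2 and -0.25 for Bmi1, which had been called higher. Without 1 library, signs changed within -0.50 to 0.11 for Kdm6a, -1.12 to 0.58 for Kdm6b, -0.34 to 0.29 for Bmi1 and -1.13 to 2.08 for Ring1 in CM against E, -0.73 to 0.60 for Eed in GHMT against E, -0.065 to 0.15 for Ezh1 in AGHMT against E and -0.26 to 0.75 for Ezh2 in GHMT against CM. Pax6, a Polycomb target called higher in GHMT, ranged from -4.16 without GHMT 2 to 5.60 without GHMT 3.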

Other observations

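Uty, the Y-linked relative of Kdm6a and a gene of the JmjC list, was looked at after its values were seen. It was at 104, 115 and 109 CPM in GHMT and at 75.5, 54.8 and 66.0 in AGHMT. It was at 29.9, 44.6 and 15.5 CPM in CM and at 10.2, 13.2 and 22.7 in E. In both genes GHMT lay above AGHMT, AGHMT above E and CM, and E and CM overlapped.

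The length-normalised ratio of Kdm6b to Kdm6a was 0.296, 0.121 and 1.93 in the CM libraries and 0.847, 0.549 and 0.208 in E. CM 3, in which Kdm6b exceeded Kdm6a, was also the CM library with the most Ring1 reads, 82 against 20 and 6. Exonic GC content was 59.0% for Kdm6b and 59.2% for Ring1, but 44.3% for Kdm6a. The GC trend was 0.58 in CM 3, 0.37 in CM 1 and 0.20 in CM 2. In E 1, E 2 and E 3 it was 0.52, 0.38 and 0.064, so the ratio ran with the trend in both groups. The part of GC content in these values was not tested.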
